A study of Mus musculus with 5 samples.

Results

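Naive CD8 T cells of mouse blood were studied as 2297 cell barcodes out of 62028 kept barcodes in 5 single-cell RNA libraries. A barcode was a member when it held at least 1 unique molecular identifier (UMI, a tag that marks 1 captured RNA molecule) of Cd8b1 and at least 1 of Cd3e, Cd3d or Trac. It had to hold no UMI of Cd4, Cd79a, Lyz2 or Ccl5, and UMIs of at most 1 of the 7 effector genes Klrk1, Klrc1, Klrc2, Il2rb, Nkg7, Xcl1 and Samd3. The members are therefore defined by measured RNA and not by surface staining or a sort. The rule gave 684 members in the library of mice fed a high-fat diet (HFD) with L-NAME and given NO2-OA, 322 and 60 in the libraries of HFD + L-NAME mice, and 864 and 367 in the libraries of chow mice.

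The study used C57BL/6N mice in which heart failure with preserved ejection fraction was modelled. HFD + L-NAME mice received the diet and L-NAME, an inhibitor of nitric oxide synthase, for 15 weeks (2 libraries). HFD + L-NAME + NO2-OA mice received the same regimen and, over its last 4 weeks, nitro-oleic acid (NO2-OA), an electrophilic nitrated fatty acid (1 library). Control mice ate regular chow (2 libraries). Age, sex and the number of mice behind a library are not given in the sources used here, so p-values measure only the spread between these libraries, which may be technical.

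CD8 T cells recognise peptides on MHC class I through a receptor aided by the CD8 co-receptor, a dimer of the Cd8a and Cd8b1 products. Naive CD8 T cells leave the thymus and circulate between blood and lymph nodes without having met their antigen. They are kept quiet and alive by interleukin 7 and by weak receptor signals from self peptides. Transcription factors such as Lef1, Tcf7, Klf2 and Foxo1 keep up this state and the homing receptor Ccr7. After antigen or strong cytokine signals, CD8 T cells gain Cd44, Ccl5, Ly6c2 and killer-cell genes.

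Members held a median of 6323 UMIs in the NO2-OA library, 7105 and 9185.5 in HFD + L-NAME and 6876 and 8263 in the chow libraries. Summed over members, depth ran from 553713 UMIs in HFD + L-NAME library 2 to 6145714 in chow library 1. HFD + L-NAME library 2 was the thinnest, with 60 members. Of all member barcodes, 1 occurred in more than 1 library. The heat-shock gene Hspa1a had 144 CPM (UMIs of a gene per 1000000 UMIs of the gate) in members of the NO2-OA library, 434 and 318 in HFD + L-NAME and 882 and 1.94 in chow. Chow library 2 thus stood far below the other 4 libraries. The 2 libraries of a group differed at least 2-fold in 6.05% of 6433 genes with a mean of at least 4 log2 CPM in HFD + L-NAME and in 6.03% in chow. What sets these libraries apart was not tested.

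The markers that name the cells were checked as a description, since the cells were proposed with these genes in view. Cd8a, the partner of Cd8b1 in the co-receptor, was not used by the gate. It had 119 CPM in members of the NO2-OA library, 135 and 164 in HFD + L-NAME libraries 1 and 2, and 109 and 157 in chow libraries 1 and 2. In a CD4 gate, the same gate with Cd4 and Cd8b1 exchanged (3253 barcodes), Cd8a had at most 0.932 CPM in any library. Cd8a thus separated the 2 gates in every library.

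Themis, a thymocyte-expressed regulator of receptor signalling, had 943 CPM in members of the NO2-OA library, 826 and 1338 in HFD + L-NAME and 1559 and 848 in the chow libraries. The CD4 gate spanned 449 to 909 CPM for Themis, so its range overlapped that of the members, while within each library the members were higher. Dapl1, a gene expressed in resting naive T cells, had 137 CPM in members of the NO2-OA library, 165 and 271 in HFD + L-NAME and 92.7 and 196 in the chow libraries. In the CD4 gate Dapl1 spanned 49.4 to 125 CPM, again lower than in the members of the same library. Itgae encodes CD103, the integrin that binds E-cadherin, and had 41.0 CPM in members of the NO2-OA library, 37.7 and 77.7 in HFD + L-NAME and 51.9 and 63.0 in the chow libraries. Itgae reached 23.8 CPM at most in the CD4 gate and 10.1 CPM at most in Ccl5-positive CD8 cells (1195 barcodes that pass the CD8 part of the gate and hold a Ccl5 UMI). Themis and Cd8a did not set members apart from Ccl5-positive CD8 cells. In cells thinned to 2000 UMIs, Themis was detected in 69.6% to 83.3% of members and in 69.3% to 81.1% of Ccl5-positive CD8 cells. For Cd8a the shares were 20.1% to 30.0% and 21.7% to 33.3%.

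Genes outside the gate were set against the label of naive cells, again as a description. Lef1 spanned 876 to 1535 CPM in members and 434 to 734 CPM in Ccl5-positive CD8 cells. Cd44, the adhesion receptor of antigen-experienced T cells, had 20.1 CPM in members of the NO2-OA library, 25.4 and 19.9 in HFD + L-NAME and 68.2 and 22 in the chow libraries. Cd44 was at least 263 CPM in Ccl5-positive CD8 cells of every library, so the groups did not overlap, although chow library 1 stood above the other libraries. Foxp3, the factor of regulatory T cells, was at most 1.81 CPM in members.

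**Figure D1:**
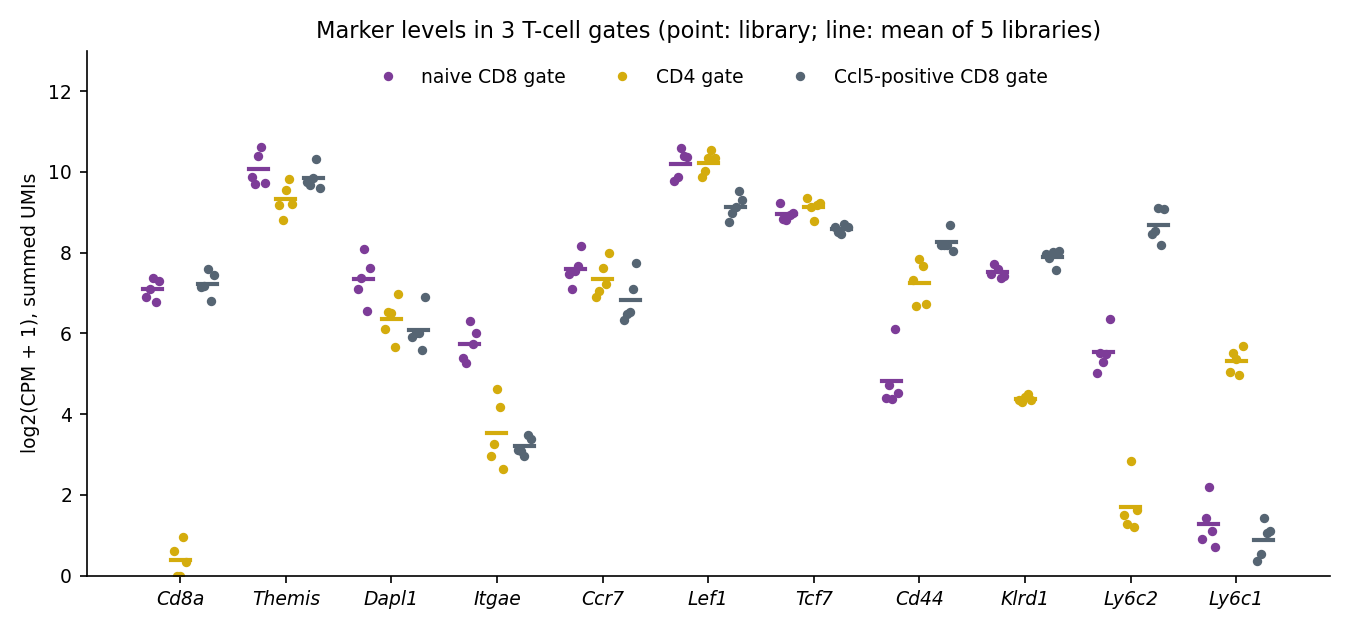
Level of 11 genes, as log2(CPM + 1) of summed UMIs, in the naive CD8 gate, the CD4 gate and the Ccl5-positive CD8 gate. Each point is 1 of the 5 libraries and each line their mean. Cd8a is near 0 in the CD4 gate, Cd44 is lowest in naive CD8 cells, and Ly6c2 and Ly6c1 lie on opposite sides.

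The gate left members with some effector RNA. Cells with UMIs of exactly 1 of the 7 effector genes numbered 385 in the NO2-OA library, 208 and 49 in HFD + L-NAME and 543 and 226 in the chow libraries. Il2rb, a subunit of the interleukin 2 and 15 receptors, was detected in 25.9% of members in the NO2-OA library, 30.4% and 23.3% in HFD + L-NAME and 43.8% and 15.0% in chow. Il2rb was detected in the CD4 gate in 21.0% of cells in the NO2-OA library, 18.1% and 30.0% in HFD + L-NAME and 16.3% and 15.7% in chow, so HFD + L-NAME library 2 and chow library 2 had a higher share there. Nkg7, a cytotoxic granule gene, was detected in 27.3% in the NO2-OA library, 31.1% and 55.0% in HFD + L-NAME and 17.4% and 43.9% in chow, and in few cells of the CD4 gate, at most 1.12%. The other 5 effector genes were each in at most 3.33% of members. Cells just outside the rule, with 2 effector genes, numbered 258 in the NO2-OA library, 189 and 47 in HFD + L-NAME and 373 and 133 in the chow libraries. Values on either side of the threshold are given without a test. Lef1 spanned 820 to 1527 CPM with 1 effector gene and 922 to 1390 CPM with 2, and it was higher with 1 in 3 of 5 libraries. Ly6c2 was lower with 1 effector gene in each library, at 39.2 CPM against 74.0 CPM with 2 in the NO2-OA library. Cd44 was also lower with 1 effector gene in each library, with 21.9 CPM against 46.0 CPM in the NO2-OA library.

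Against the CD4 gate of the same library, naive CD8 cells differed in 2190 of 10943 genes tested, which is 20% (edgeR's quasi-likelihood test with the library as a block, Benjamini-Hochberg adjusted p under 0.05). Of these, 1070 genes were higher in naive CD8 cells (9.78% of those tested) and 1120 were lower (10.2%). The genes used by either gate were left out. The CD4 gate is not a pure naive population: Foxp3 had 10.8 to 24.8 CPM in it, and the summed level of 5 regulatory T-cell markers was 314 to 566 CPM in the CD4 gate, against 89.0 to 217 CPM in naive CD8 cells. All 5 regulatory T-cell markers were lower in naive CD8 cells, among them Foxp3 by a log2 difference of -4.11 ± 0.28 (edgeR adjusted p = 1.13e-10). The ± after a log2 difference is the size of the difference over the square root of the F statistic, which approximates a standard error. The part of regulatory T cells, or of activated or memory CD4 cells, in the genes below was not tested.

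Transcription factors of the 2 lineages stood among the clearest differences. Runx3, which sets the CD8 fate and silences Cd4, had 272 CPM in naive CD8 cells and 73.0 CPM in the CD4 gate of the NO2-OA library. In HFD + L-NAME libraries 1 and 2 Runx3 had 253 and 237 CPM in naive CD8 cells, against 70.8 and 83.7 CPM in the CD4 gate. In chow libraries 1 and 2 it had 387 and 142 CPM in naive CD8 cells, against 113 and 33.5 CPM in the CD4 gate. Runx3 was higher in naive CD8 cells in 5 of 5 libraries, by a log2 difference of 1.91 ± 0.07 (edgeR adjusted p = 6.64e-15). Runx1, its relative, was lower in naive CD8 cells by -1.43 ± 0.06 (edgeR adjusted p = 2.1e-14), in 5 of 5 libraries. Zbtb7b encodes ThPOK, the factor of the CD4 fate, and was at most 0.325 CPM in naive CD8 cells, against 5.40 to 18.6 CPM in the CD4 gate. Gata3, which supports CD4 development and type 2 helper cells, was lower by -1.20 ± 0.10, and Tox, needed for CD4 lineage development in the thymus, by -0.99 ± 0.06. Bend4, which carries BEN domains, had 133 CPM in naive CD8 cells of the NO2-OA library, 147 and 126 in HFD + L-NAME and 184 and 78.8 in the chow libraries. In the CD4 gate Bend4 spanned 2.52 to 3.70 CPM, and its log2 difference was 5.68 ± 0.14 (edgeR adjusted p = 9.79e-19). Bend4 was not particular to naive cells. At 2000 UMIs it was detected in 12.6% to 27.1% of naive CD8 cells and in 14.5% to 25.1% of Ccl5-positive CD8 cells.

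Surface receptors also told the gates apart. Klrd1 encodes CD94, the partner of the NKG2 receptors, which was not in the gate. It had 175 CPM in naive CD8 cells of the NO2-OA library, 209 and 193 in HFD + L-NAME and 165 and 170 in the chow libraries. The CD4 gate held 18.8 to 21.6 CPM of Klrd1, so the gates did not overlap (log2 difference 3.24 ± 0.09, edgeR adjusted p = 1.09e-17). In cells thinned to 2000 UMIs, 26.2% to 34.8% of naive CD8 cells held a Klrd1 UMI, against at most 0.583% in a B-cell gate, which should lack it. Ccl5-positive CD8 cells carried Klrd1 as well, with a UMI in 30.0% to 37.1% of them. Dpp4 (CD26, a surface peptidase) was higher in naive CD8 cells by 1.77 ± 0.08, and Gria3, a glutamate receptor subunit, by 3.58 ± 0.16. Dnajc15, a co-chaperone of mitochondria, was higher by 1.99 ± 0.07, and Epsti1, an interferon-induced gene, by 1.64 ± 0.07. Cd40lg, the CD4 helper ligand for B cells, was lower by -4.47 ± 0.19, with 1.29 to 2.12 CPM in naive CD8 cells and 28.2 to 104 CPM in the CD4 gate. Also lower in naive CD8 cells were St8sia6, a sialyltransferase (-3.74 ± 0.11), Tbc1d4, a regulator of glucose transporter traffic (-3.02 ± 0.12), and Nav2 (-3.97 ± 0.17). The endosomal tether Eea1 was lower by -2.76 ± 0.11 and Tmem64 by -2.64 ± 0.09. Each of these genes had an edgeR adjusted p of at most 1.4e-13 and 1 direction in 5 of 5 libraries.

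**Figure D2:**
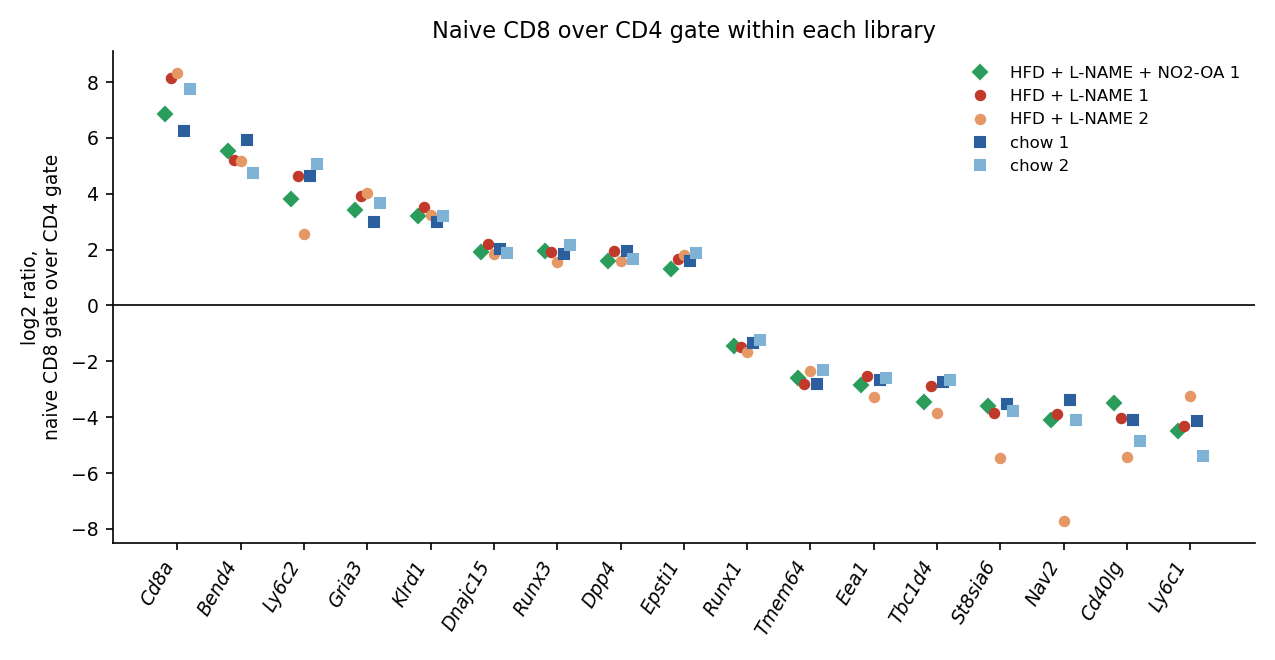
Log2 ratio of naive CD8 gate over CD4 gate within each library for 17 genes; diamonds are the NO2-OA library, circles HFD + L-NAME and squares chow. Each gene keeps 1 sign in 5 of 5 libraries, and HFD + L-NAME library 2, with 60 members, lies farthest from the others for Ly6c2 and Nav2.

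The paralogs Ly6c2 and Ly6c1, which together encode the Ly6C surface antigen, went opposite ways. Ly6c2 had 31.5 CPM in naive CD8 cells of the NO2-OA library, 44.4 and 37.9 in HFD + L-NAME and 43.6 and 80.8 in the chow libraries. In the CD4 gate Ly6c2 had 1.85 CPM in the NO2-OA library, 1.42 and 6.20 in HFD + L-NAME and 1.31 and 2.08 in the chow libraries. Ly6c2 did not overlap between the gates and its log2 difference was 4.65 ± 0.21 (edgeR adjusted p = 1.98e-13). Ly6c1 had 0.864 CPM in naive CD8 cells of the NO2-OA library, 1.69 and 3.61 in HFD + L-NAME and 1.14 and 0.646 in the chow libraries. The CD4 gate held 30.4 to 50.7 CPM of Ly6c1, and the log2 difference was -4.91 ± 0.22 (edgeR adjusted p = 8.5e-14). In Ccl5-positive CD8 cells Ly6c2 spanned 292 to 548 CPM and Ly6c1 at most 1.70 CPM, so the CD8 cells of both gates carried Ly6c2. Of the 6 Ly6 family genes tested, 1 was higher and 3 were lower in naive CD8 cells. The other lower genes were Ly6a (Sca-1), by -2.6 ± 0.13, and Ly6e, by -0.44 ± 0.07, which missed the threshold with a stricter gate of at least 2 Cd8b1 UMIs and no effector gene (-0.34, edgeR adjusted p = 0.0619). The stricter gate left 138 members in the NO2-OA library, 63 and 5 in HFD + L-NAME and 140 and 108 in chow. Ly6c2 was named here as a member of that family list.

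The 2 genes are close copies, so the counting could have split reads between them: of 90-base windows in the last 500 bases of the annotated transcripts, 19.3% of 696 for Ly6c2 and 12% of 1652 for Ly6c1 occur in the other gene. Their promoters are shown because the paralogs were higher in opposite gates. They run from 250 bases before to 50 after the first annotated start, on the minus strand, as RefSeq gives them for build GRCm38.p6; the expression data were aligned to another build. Each gene has 2 starts in that table. Capitals mark matches to the letters TGTGGT (RUNX) or GGAAGT (ETS), read on both strands.
Ly6c2, chr15:75111922-75112221: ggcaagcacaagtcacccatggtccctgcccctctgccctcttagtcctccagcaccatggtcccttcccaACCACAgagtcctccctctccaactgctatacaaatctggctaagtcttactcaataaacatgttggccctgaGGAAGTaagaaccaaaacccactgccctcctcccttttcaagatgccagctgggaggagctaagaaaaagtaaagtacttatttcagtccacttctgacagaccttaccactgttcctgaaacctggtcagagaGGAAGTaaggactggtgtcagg
Ly6c1, chr15:75048788-75049087: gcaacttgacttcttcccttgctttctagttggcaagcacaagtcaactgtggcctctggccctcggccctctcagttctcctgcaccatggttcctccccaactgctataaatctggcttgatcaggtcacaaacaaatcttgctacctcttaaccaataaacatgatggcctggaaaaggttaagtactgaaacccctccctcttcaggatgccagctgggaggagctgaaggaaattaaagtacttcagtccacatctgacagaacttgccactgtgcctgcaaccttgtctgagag
The 2 promoters matched in 213 of 335 aligned columns (63.6%), with the overhanging ends counted, since the 2 windows are offset. The Ly6c2 window held 1 RUNX and 2 ETS matches, and the Ly6c1 window held none of either. However, the Ly6c1 window ends where the last GGAAGT of Ly6c2 would align, so whether Ly6c1 has that match was not seen. Neither window held the letters CTTTGA (TCF/LEF). Over 32851 promoters of the same length, 16.8% held the RUNX letters, 23.8% the ETS letters and 16.0% the TCF/LEF letters.

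Groups of genes that describe the naive state were compared with the CD4 gate against the background of all genes tested, of which 52% had a log2 difference above 0, with a median of 0.01. Among 24 naive and quiescence factors, 6 were higher and 7 lower in naive CD8 cells, with a median of -0.09. Ccr7, the lymph node homing receptor, was higher by 0.36 ± 0.08. Ccr7 had 176 CPM in naive CD8 cells of the NO2-OA library, 137 and 184 in HFD + L-NAME and 204 and 285 in the chow libraries. In the CD4 gate Ccr7 had 118 CPM in the NO2-OA library, 132 and 196 in HFD + L-NAME and 147 and 253 in the chow libraries. HFD + L-NAME library 2 was the exception, since Ccr7 was higher in its CD4 gate. Klf2 was higher by 0.30 ± 0.06. With the stricter gate neither passed the threshold, at 0.27 for Ccr7 and 0.15 for Klf2 (edgeR adjusted p = 0.196 and 0.767). S1pr1, the receptor by which T cells leave lymph nodes, was lower by -0.52 ± 0.07, and Foxo1 by -0.46 ± 0.09. Lef1 and Tcf7 did not pass the threshold, with log2 differences of 0.04 and -0.11, except that Tcf7 passed without HFD + L-NAME library 2 (-0.15, edgeR adjusted p = 0.0431).

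Of the CD8 lineage identity list without the markers that name the cells, 13 genes were tested, of which 3 were higher and 7 lower. Beside Runx3, the higher ones were Cd7, an early T-cell surface protein (1.18 ± 0.19), and Ikzf1, which encodes Ikaros (0.25 ± 0.05). Cd7 missed the threshold in thinned cells (0.90, edgeR adjusted p = 0.0611) and Ikzf1 with the stricter gate (0.15, edgeR adjusted p = 0.442). Of 27 trafficking receptors and adhesion genes, 7 were higher and 13 lower. Ccr9, the receptor for the gut and thymus chemokine Ccl25, had 55.7 CPM in naive CD8 cells of the NO2-OA library, 57.5 and 117 in HFD + L-NAME and 84.0 and 49.8 in the chow libraries, against at most 18.7 CPM in the CD4 gate. Ccr9 was higher by 2.41 ± 0.20, whereas Ccr4, a receptor of skin-homing and helper cells, was lower by -3.78 ± 0.47 and the integrin Itgb1 by -1.65 ± 0.16.

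Receptor signalling genes were lower more often than higher in naive CD8 cells. Of 23 genes of the T-cell receptor complex and proximal signalling, 3 were higher and 9 lower, with a median of -0.18. The kinase Lck was higher by 0.27, while Fyn, Lat and the co-stimulatory receptor Cd28 were lower by -0.37, -0.40 and -0.42. Lck and Lat missed the threshold with the stricter gate and in thinned cells, where Lat was at -0.11, and Lck missed it without chow library 2 (0.23, edgeR adjusted p = 0.0667). Of 22 negative regulators of receptor signalling, 2 were higher and 9 lower. Cd5, whose level follows the strength of self-peptide signals, had 27.4 CPM in naive CD8 cells of the NO2-OA library, 32.2 and 59.6 in HFD + L-NAME and 47.8 and 45.6 in the chow libraries. In the CD4 gate Cd5 had 92.5 to 213 CPM, and its log2 difference was -1.58 ± 0.09 (edgeR adjusted p = 3.56e-12). The phosphatase Ptpn22 was higher by 0.65, and the inhibitory receptor Btla was lower by -1.09.

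Of 21 memory and effector genes, 4 were higher and 14 lower in naive CD8 cells, and the median was -0.95. It was -0.24 with a stricter gate and -0.50 in thinned cells. The higher ones were Klrd1 and 3 genes linked to cytotoxic granules: Cst7 (2.16 ± 0.19), Ctsw (2.14 ± 0.20) and perforin, Prf1 (1.18 ± 0.17). Prf1 had 12.6 to 27.8 CPM in naive CD8 cells, against 5.17 to 14.0 CPM in the CD4 gate and 23.8 to 45.9 CPM in Ccl5-positive CD8 cells. Lower genes included Cd44 (-2.14 ± 0.26), S100a4 (-4.78) and the chemokine receptor Cxcr3 (-2.82). Both gates exclude cells by Ccl5 and the 7 effector genes, not by Cd44, so the CD4 gate may keep activated or memory cells. At 2000 UMIs, Cd44 was detected in 11.7% to 20.1% of CD4-gate cells and in 1.67% to 9.74% of naive CD8 cells. The part of such cells in these differences was not tested. Of 33 cytokine receptor and JAK-STAT genes, 5 were higher and 9 lower. Il7r, the interleukin 7 receptor, did not pass the threshold (0.11 ± 0.05, edgeR adjusted p = 0.145), with 752 to 982 CPM in naive CD8 cells and 770 to 899 CPM in the CD4 gate. Il21r was higher by 0.59, and Il2ra, the high-affinity interleukin 2 receptor chain that also marks regulatory T cells, was lower by -1.86 ± 0.23.

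Of 18 immediate-early genes, 6 were higher and 3 lower. Dusp2, a phosphatase of MAP kinases, was higher by 1.43 ± 0.07 in 5 of 5 libraries. Of 17 genes induced early by receptor signals, 3 were higher, among them the activation antigen Cd69 (0.62 ± 0.07) and Myc (1.09 ± 0.15), and 5 were lower, among them the co-stimulator Icos (-1.28 ± 0.13). Myc ran the other way in HFD + L-NAME library 2. Of 89 cytosolic ribosomal protein genes, 79 were higher and 0 lower, with a median of 0.29. Leaving out any 1 library kept that median between 0.29 and 0.30. Of 13 respiratory chain genes encoded by mitochondria, 11 were higher, with a median of 0.23. Of 21 genes of MHC class I presentation, 6 were higher and 1 lower, among them H2-Q6 (0.57) and H2-Q7 (0.36), which was 0.18 and missed the threshold in thinned cells.

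Variation among members was measured in cells thinned to 2000 UMIs, which left out 6 members in the NO2-OA library, none in HFD + L-NAME and 2 and 1 in chow. Of 3751 genes with a mean of at least 0.05 UMIs per cell in every library, 15 were named by the highest median rank of variance over mean. They were Malat1, Arhgap15, Rplp1, Auts2, Zeb1, Bcl2, Kcnq5, mt-Atp6, mt-Co1, Rps24, Dennd4a, Inpp4b, Immp2l, Fhit and Fgf13. The ratio was not adjusted for the mean, so abundance can affect the rank. Mean UMIs per cell ran from 33.8 to 39.8 for Malat1 and from 0.0776 to 0.2 for Kcnq5. The nuclear RNA Malat1 led in rank, with a variance over mean of 6.51 in the NO2-OA library, 5.10 and 6.64 in HFD + L-NAME and 6.03 and 4.57 in the chow libraries. The survival factor Bcl2 had a ratio of 2.95 in the NO2-OA library, 2.41 and 2.21 in HFD + L-NAME and 3.00 and 2.67 in the chow libraries. Genes of the gate were left out of this ranking, so the naming marker Cd8b1 could not appear. The naming markers Cd8a, Dapl1, Themis and Itgae were not among the 15.

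Cells with and without Dapl1 RNA differed in other genes. At 2000 UMIs, Dapl1 was detected in 147 members of the NO2-OA library, 68 and 19 of HFD + L-NAME and 142 and 84 of the chow libraries, or 16.5% to 31.7% of members. At most 0.0863% of B cells held a Dapl1 UMI in another draw at that depth. Cells without a UMI may still express the gene, and most cells with it held exactly 1 UMI. Within libraries, 65 of 4135 genes tested (1.57%) differed between Dapl1-detected and undetected cells (edgeR adjusted p under 0.05), 48 of them higher in detected cells. With no filter on low counts the balance was the opposite, with 2 higher and 54 lower of 18163 genes, and the median of all genes was -0.20. Cytosolic ribosomal protein genes made up 33 of the 48, out of 84 tested, and their median was 0.16 against 0.01 over all genes (0.01 for the ribosomal list with no filter). Rplp0 was higher by 0.27 ± 0.05 and Rps12 by 0.25 ± 0.05 (edgeR adjusted p = 0.00021 for each). Tmsb4x, which encodes the actin-binding thymosin beta 4, was higher by 0.31 ± 0.04 (edgeR adjusted p = 4.17e-09), with ratios of 0.34 in the NO2-OA library, 0.37 and 0.42 in HFD + L-NAME and 0.22 and 0.25 in chow. Without chow library 1, 13 genes passed in this split, and 22 passed without chow library 2 and without the NO2-OA library. The translation-related genes Rpl23, Rps15a, Rps27, Rps24 and Tpt1 were also higher in 5 of 5 libraries.

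Ly6c2 was the largest of these differences among the genes given here. Its log2 ratio was 1.51 in the NO2-OA library, 0.57 and 1.10 in HFD + L-NAME and 0.53 and 1.53 in chow, a fitted difference of 1.15 ± 0.25 (edgeR adjusted p = 0.00168). Ly6c2 missed the threshold without chow library 2 (0.97, edgeR adjusted p = 0.112) and without the NO2-OA library (1.01, edgeR adjusted p = 0.0599). Ly6e was higher by 0.47 ± 0.13 and the MHC class I gene H2-Q6 by 0.53 ± 0.14. In cells thinned to 1000 UMIs Ly6e turned to -0.10, and in cells thinned to 3000 UMIs H2-Q6 was 0.15. The 17 lower genes included Foxo3, a quiescence factor (-0.82 ± 0.22), Phlpp1, a phosphatase that restrains AKT (-0.73 ± 0.17), Camk4, a calcium-dependent kinase (-0.40 ± 0.10), and Zeb1, a repressor (-0.25). Tiprl (-0.86 ± 0.22), Rab10, Dock10 and Arhgap15 were lower as well, in 5 of 5 libraries. Each of the 19 genes named as differing in this split missed the threshold under at least 1 alternative. In cells thinned to 3000 UMIs Foxo3 was -0.34, Tiprl -0.26 and Rab10 -0.16. Ccr7, Lef1, Tcf7 and Cd44 did not pass the threshold, with differences of 0.08, 0.14, 0.04 and -0.00.

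The split by Ly6c2 gave the reverse view. Ly6c2 was detected in 34 members of the NO2-OA library, 26 and 7 of HFD + L-NAME and 58 and 35 of the chow libraries. Of 1856 genes tested, 5 differed (0.269%), 3 of them higher in detected cells. With no filter on low counts, 1 gene was higher and 29 were lower. Dapl1 was higher in Ly6c2-detected cells by 1.10 ± 0.22 (edgeR adjusted p = 0.0012), with ratios of 1.00 in the NO2-OA library, 1.14 and 1.26 in HFD + L-NAME and 0.57 and 1.48 in chow. Tmsb4x and Rps12 were each higher by 0.27 ± 0.06, and Malat1 (-0.18 ± 0.04) and Nasp, a histone chaperone (-0.83 ± 0.20), were lower. With no filter on low counts Tmsb4x and Rps12 reversed, to -0.064 and -0.058. Each of the 5 genes missed the threshold under at least 1 alternative. The 2 splits share their cells and are not independent of each other. Without chow library 2 the Dapl1 difference was 0.94 with an edgeR adjusted p of 0.23.

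The split by Itgae gave no gene past the threshold in 2154 tested (0%) with edgeR, and 0 with DESeq2; 137 genes had an unadjusted edgeR p under 0.05. Itgae was detected in 45 members of the NO2-OA library, 16 and 7 of HFD + L-NAME and 77 and 35 of the chow libraries.

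**Figure D3:**
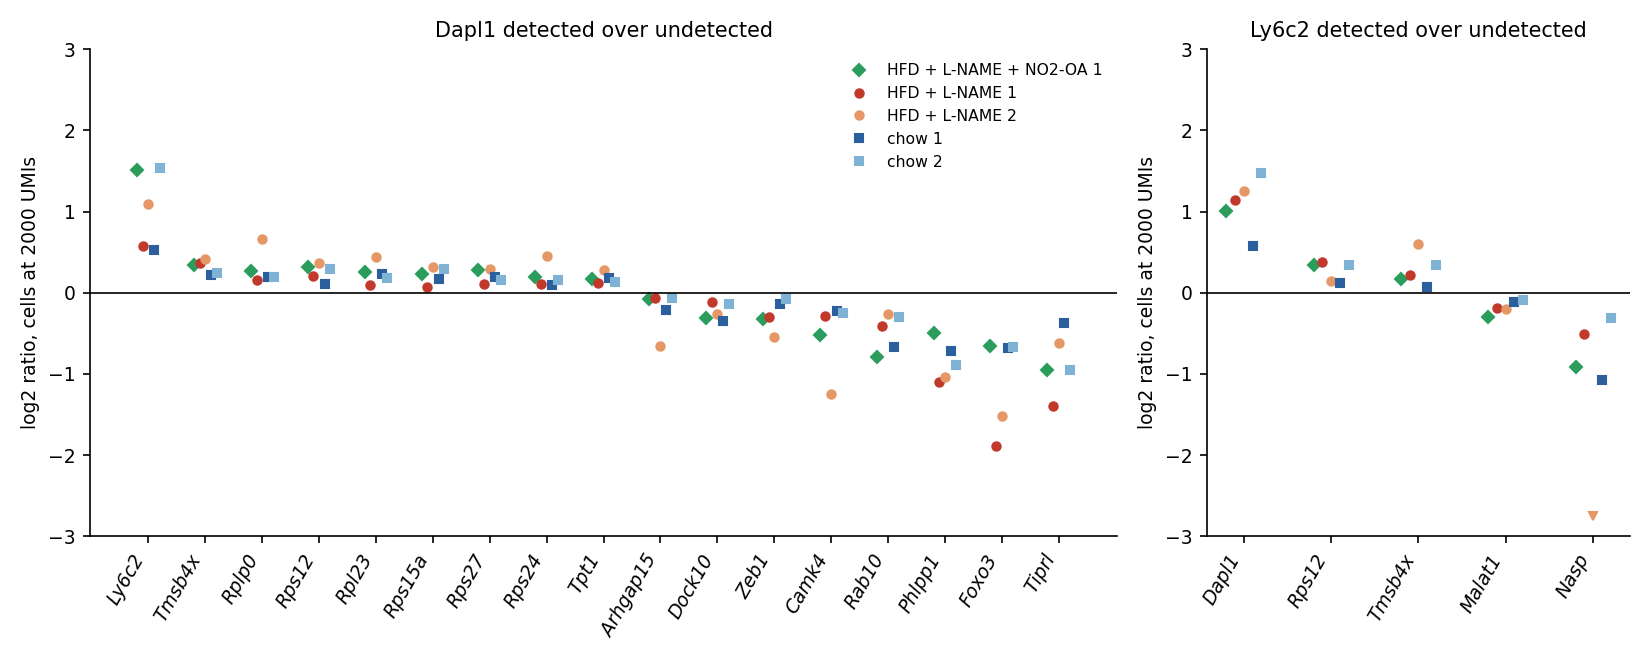
Log2 ratio of detected over undetected naive CD8 cells per library, for the split by Dapl1 (left) and by Ly6c2 (right), in cells thinned to 2000 UMIs. Ly6c2 and Dapl1 lie above 0 in each other's split in 5 of 5 libraries; a downward triangle is a ratio below the axis, Nasp in HFD + L-NAME library 2.

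The share of naive CD8 cells among kept barcodes was lower in both HFD + L-NAME libraries than in both chow libraries. It was 4.72% in the NO2-OA library (95% exact binomial interval 4.38% to 5.08%). It was 2.70% (2.42% to 3.01%) and 0.781% (0.596% to 1.00%) in HFD + L-NAME libraries 1 and 2, and 5.01% (4.69% to 5.34%) and 3.43% (3.10% to 3.80%) in chow libraries 1 and 2. Intervals cover counting error only. The difference of mean log2 shares, HFD + L-NAME minus chow, was -1.51, and an exact two-sided permutation test gave p = 0.33, the smallest that 2 against 2 libraries allow. With every cell thinned to 2000 UMIs before gating, the shares were 3.18% in the NO2-OA library, 2.26% and 1.39% in HFD + L-NAME and 2.84% and 3.49% in chow, a log2 difference of -0.83. Without HFD + L-NAME library 2 the log2 difference was -0.62.

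Among all gated CD8 cells, members made up 49.9% in the NO2-OA library (47.2% to 52.6%), 43.0% (39.5% to 46.7%) and 37.7% (30.2% to 45.8%) in HFD + L-NAME, and 53.2% (50.7% to 55.7%) and 50.2% (46.5% to 53.9%) in chow. The log2 difference, HFD + L-NAME minus chow, was -0.36 (exact permutation p = 0.33). At 2000 UMIs per cell the shares were 71.6% in the NO2-OA library, 73.7% and 72.4% in HFD + L-NAME and 80.2% and 68.1% in chow, and the log2 difference was -0.02 (exact permutation p = 1). The groups then overlapped. Thinning also changes which cells pass the gate. With the stricter gate the log2 difference was -1.26, but HFD + L-NAME library 2 then had only 5 members among 131 gated CD8 cells.

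**Figure D4:**
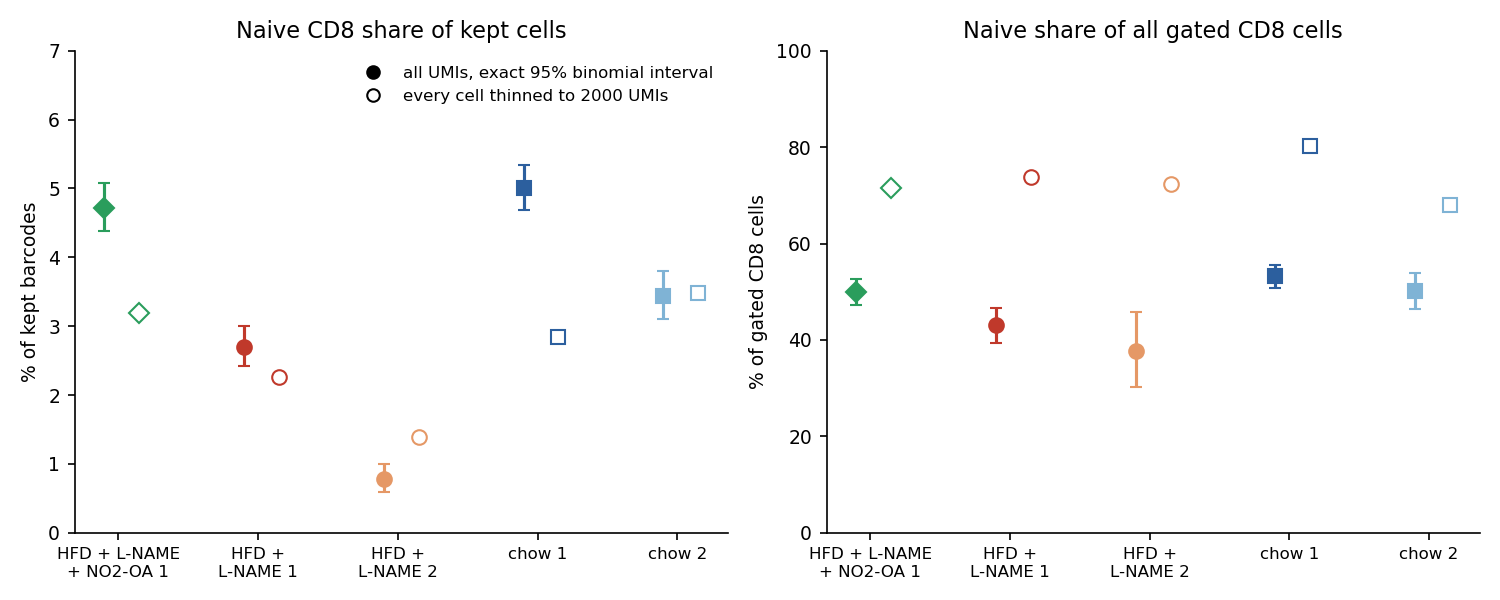
Naive CD8 cells as a percentage of kept barcodes (left) and of gated CD8 cells (right) in each library. Filled symbols are all UMIs with the exact 95% binomial interval, open symbols are cells thinned to 2000 UMIs; at equal depth the right-hand shares of HFD + L-NAME lie between those of the chow libraries.

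Between HFD + L-NAME and chow, 2 of 11977 genes tested in naive CD8 cells passed the threshold (0.0167%; edgeR adjusted p under 0.05), both higher in HFD + L-NAME. Levels in this and the next comparison are CPM scaled by edgeR's TMM factors. Ahr encodes the aryl hydrocarbon receptor, a transcription factor that senses dietary and microbial ligands. It had 33.0 and 14.0 CPM in the HFD + L-NAME libraries, against 6.38 and 3.99 CPM in the chow libraries, and 34.2 CPM in the NO2-OA library. The groups did not overlap, and the log2 difference of Ahr was 2.26 ± 0.44 (edgeR adjusted p = 0.00585). Gpr146, a receptor known for a role in cholesterol metabolism in the liver, had 67.8 and 17.5 CPM in HFD + L-NAME, against 13.2 and 13.3 CPM in chow, and 65.3 CPM in the NO2-OA library. Its log2 difference was 1.83 ± 0.37 (edgeR adjusted p = 0.0282), and HFD + L-NAME library 2 was much nearer to chow than library 1. Without HFD + L-NAME library 1 the log2 difference was 1.37 for Ahr and 0.39 for Gpr146, and neither passed the threshold (edgeR adjusted p = 1 for each). The NO2-OA library is alone in its group, so it adds no spread of its own to the fit. Leaving it out changed the genes tested to 10313. The edgeR adjusted p was then 0.551 for Ahr and 1 for Gpr146, and 0 genes passed. The number of genes past the threshold also changed as each chow library or HFD + L-NAME library 2 was left out.

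In the CD4 gate, too, both HFD + L-NAME libraries lay above both chow libraries for these genes. There Ahr had 24.7 and 20.7 CPM, without TMM scaling, in the HFD + L-NAME libraries, against 15.8 and 5.20 CPM in chow, and 39.2 CPM in the NO2-OA library. Gpr146 had 68.2 and 28.9 CPM in the CD4 gate of HFD + L-NAME, against 19.4 and 22.1 CPM in chow, and 79.1 CPM in the NO2-OA library. The effect was not shown to differ between the gates (edgeR adjusted p of the difference 0.643 for Ahr and 1 for Gpr146).

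Other genes with the smallest p and no overlap between the groups did not pass the threshold. Those higher in HFD + L-NAME were Clcc1 (1.27), the RNA regulator Zc3h12d (1.09), Frmd4b (1.24), Tnfsf8, which encodes the ligand of CD30 (1.02), Slc41a1 (1.19), the receptor Gpr171 (1.06), Pja1 (1.04) and Rab10os (0.99), which is uncertain because it lies antisense to Rab10 and the use of strand in counting is not given in the sources used here. Those lower were St8sia6 (-1.42), Plek (-1.12), Zbtb10 (-0.91), Pdxdc1 (-0.89), Mib1 (-0.85), Abcc1 (-0.93), Arsb (-1.27), Sec22a (-1.15), Plekha2 (-0.86) and Lsmem1 (-0.95). In thinned cells Abcc1 and Arsb reversed, to 0.16 and 0.15. St8sia6 had 13.8 and 6.99 CPM in HFD + L-NAME, against 39.7 and 22.3 CPM in chow (edgeR adjusted p = 0.7). Libraries of the 2 groups did not overlap, with HFD + L-NAME higher, in 12.3% of all genes tested, and lower in 15.6%.

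**Figure D5:**
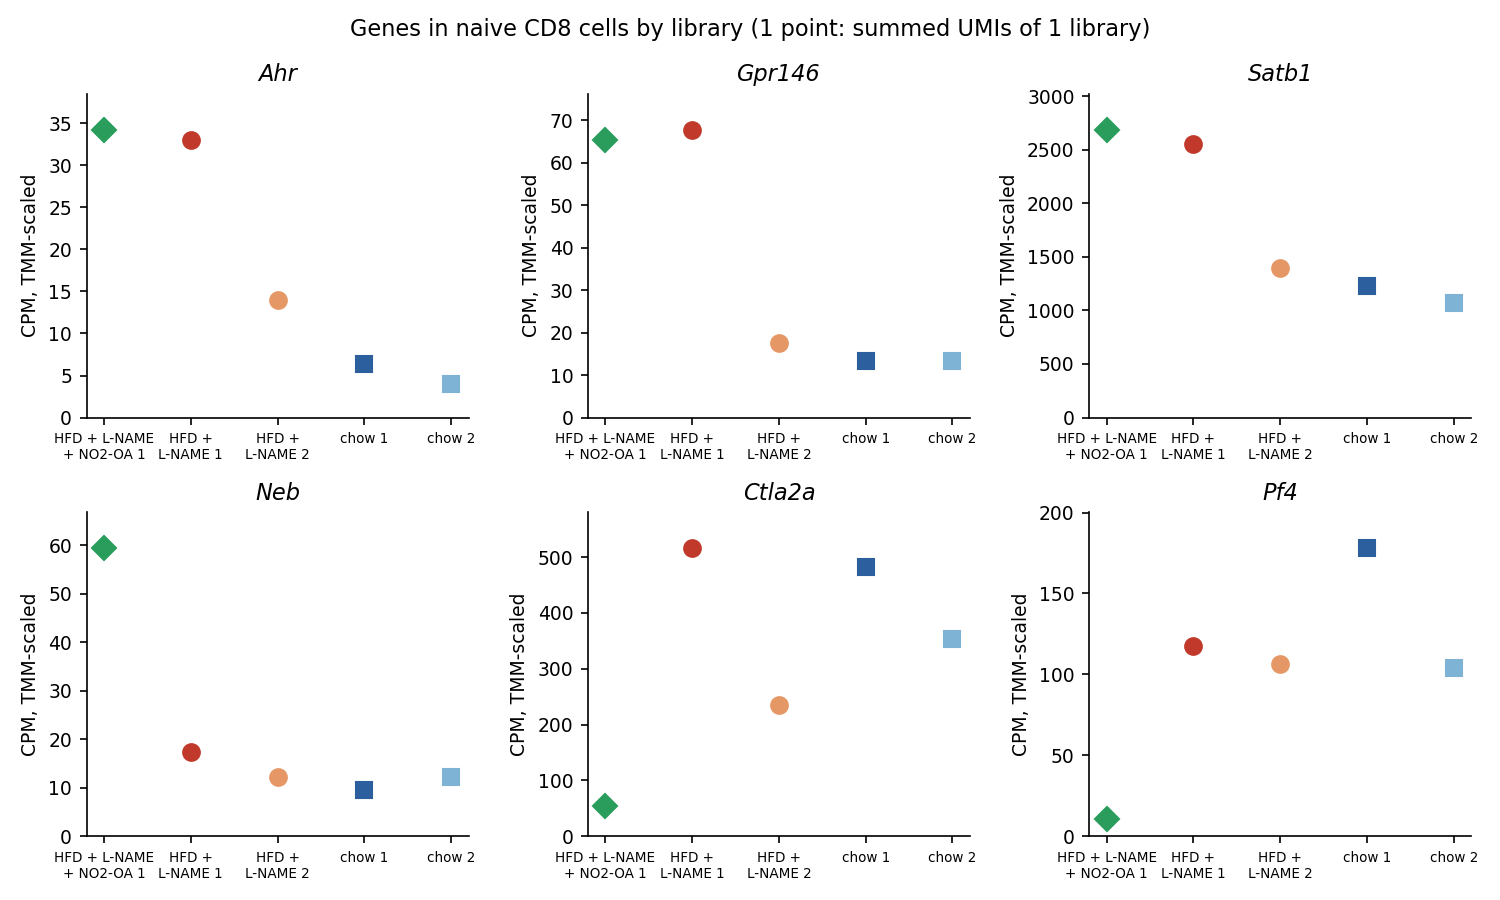
TMM-scaled CPM of 6 genes in naive CD8 cells; each point is the summed UMIs of 1 library. Ahr and Gpr146 are higher in HFD + L-NAME library 1 and the NO2-OA library than in the other 3 libraries, and Ctla2a and Pf4 are lowest in the NO2-OA library.

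Lists of genes gave no member past the threshold in this comparison, and their medians are set beside that of all genes (-0.02, with 47.9% of genes above 0). Over all genes tested, 12.3% stood above chow and 15.6% below it without overlap. Of 17 genes induced early by receptor signals, 5 were above 0 and the median was -0.30. In 7 of the 17 the HFD + L-NAME libraries were both below both chow libraries, and in 0 both above. Among them, Ifrd1 had 435 and 290 CPM in HFD + L-NAME, against 670 and 477 CPM in chow. The nuclear receptor Nr4a3 had 201 and 245 CPM in HFD + L-NAME, against 327 and 309 CPM in chow. Pairing the libraries by number gave list medians of -0.28 and -0.23. The median was -0.04 without chow library 1 and 0.01 in members without platelet UMIs. Of 33 cytokine receptor and JAK-STAT genes, 22 were above 0, with a median of 0.20, and 8 stood above and 4 below chow without overlap. Without HFD + L-NAME library 1 that median was -0.12, so its direction turned, and with the stricter gate it was 0.35.

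Of 45 interferon-stimulated genes, 38 were above 0 with a median of 0.27, and 7 did not overlap, all higher in HFD + L-NAME. Beside this, 12.3% of all genes tested were higher and 15.6% lower in HFD + L-NAME without overlap. The median was 0.66 for library 1 of each group and -0.33 for library 2, so the direction turned between the pairs. It was -0.22 without HFD + L-NAME library 1. Ribosomal protein genes behaved alike, with 77 of 89 above 0, a median of 0.12, and medians of 0.63 and -0.31 in the 2 pairs. Their median was -0.17 without chow library 1, 0.52 without chow library 2, -0.03 without HFD + L-NAME library 1 and 0.27 without library 2. Of 24 naive and quiescence factors, 10 were above 0 and the median was -0.05 (-0.24 with the stricter gate). Satb1, a genome organiser needed for T-cell identity, had 2554 and 1396 CPM in HFD + L-NAME, against 1226 and 1066 CPM in chow, and 2689 CPM in the NO2-OA library (log2 difference 0.79 ± 0.36, not past the threshold).

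Between the NO2-OA library and the HFD + L-NAME libraries, 17 of 11977 genes passed the threshold (0.142%), 2 higher and 15 lower. Without HFD + L-NAME library 1 the balance was the opposite, with 17 higher and 8 lower, and without chow library 2 there were 5 higher and 24 lower. This comparison has 1 library on one side, whose spread is taken to be that of the other groups, and it shares the HFD + L-NAME libraries with the comparison above. Pf4, a platelet chemokine, had 10.6 CPM in the NO2-OA library, against 117 and 107 CPM in HFD + L-NAME, with 178 and 104 CPM in chow (log2 difference -3.41 ± 0.45, edgeR adjusted p = 6.85e-09). Gng11, Ppbp, Nrgn, Cd9, Myl9, Thbs1, Gp9, Clec1b, Plek, Alox12, Rgs18, Mfap3l, Ctla2b and Ctla2a were lower too. Of the 8 platelet markers, 7 were tested and 4 passed the threshold, with a median of -2.96.

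Members with a UMI of any of the 8 platelet markers made up 13.7% in the NO2-OA library, 64.6% and 53.3% in HFD + L-NAME and 83.4% and 59.9% in chow. The CD4 gate showed like shares, of 12.1% in the NO2-OA library, 65.0% and 43.6% in HFD + L-NAME and 82.7% and 59.6% in chow. Left to members without such a UMI, the comparison gave 1 gene past the threshold, Gng11, which encodes a G-protein subunit. The other called genes that could be tested there had log2 differences that did not pass the threshold, with 9010 genes tested. These were -3.72 for Nrgn (-3.21 in all members), -2.88 for Rgs18 (-3.01), -2.67 for Ctla2a (-2.82), -2.78 for Thbs1 (-2.98), -2.30 for Ctla2b (-2.54), -2.22 for Myl9 (-2.81), -1.85 for Cd9 (-2.09), -1.49 for Plek (-2.28), 1.74 for Neb (1.92) and 2.17 for Dnaaf11 (3.08). Gng11 was higher in members with a platelet-marker UMI than in members without one in each library (CPM without TMM scaling). It was 46.4 against 6.35 CPM in the NO2-OA library. In HFD + L-NAME it was 224 against 111 CPM and 107 against 35.4 CPM. In chow it was 190 against 76.2 CPM and 138 against 50.8 CPM. The part of platelet RNA in these calls, Gng11 among them, was not tested. The red-cell markers moved the other way: all 7 were above 0, and their summed level in members was 22243 CPM in the NO2-OA library, 6523 and 1131 CPM in HFD + L-NAME and 4022 and 61.7 CPM in chow. Of the Hbb-bs UMIs in members, 35.1% lay in the top 5 cells of the NO2-OA library, against 97.6% and 79.6% in HFD + L-NAME and 98% and 16.7% in chow.

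Ctla2a encodes an inhibitor of cathepsin-type proteases that lymphocytes express as well. It had 53.8 CPM in the NO2-OA library, 516 and 236 CPM in HFD + L-NAME and 483 and 353 CPM in chow (log2 difference -2.82 ± 0.44, edgeR adjusted p = 6.25e-06). In each library Ctla2a was higher in members with a platelet-marker UMI than in members without one (CPM without TMM scaling). It was 152 against 36.8 CPM in the NO2-OA library. In HFD + L-NAME it was 578 against 328 CPM and 371 against 94.3 CPM. In chow it was 551 against 266 CPM and 438 against 193 CPM. In Ccl5-positive CD8 cells Ctla2a had 540 CPM in the NO2-OA library, 894 and 692 CPM in HFD + L-NAME and 874 and 668 CPM in chow. The 2 higher genes were Neb, which encodes nebulin, and Dnaaf11, a cilium assembly factor with a mean below 4 log2 CPM. Neb had 59.4 CPM in the NO2-OA library, 17.4 and 12.2 CPM in HFD + L-NAME and 9.49 and 12.3 CPM in chow (1.92 ± 0.45, edgeR adjusted p = 0.0242). Neb missed the threshold without HFD + L-NAME library 1 (edgeR adjusted p = 0.178) and without library 2 (0.529), and Dnaaf11 without library 2 (0.116). Neither passed with DESeq2 (adjusted p = 1 for each). Higher without passing the threshold were Etv6 (1.28), Arid5b (1.29), Slc30a4 (1.51), Atf6 (1.5), Gbp5 (1.55), Zfp26 (1.48), Skap2 (1.25), Nxpe3 (1.16) and Irgm1 (1.28).

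No list outside the platelet markers had a member past the threshold. Over all genes the median was 0.01 and 51.5% were above 0; the NO2-OA library stood above both HFD + L-NAME libraries in 32.3% of all genes and below both in 27.2%. Of 45 interferon-stimulated genes, 37 were above 0 with a median of 0.48, and 28 stood above and 5 below both HFD + L-NAME libraries. Set against HFD + L-NAME library 1 alone, the median was 0.16. It was 1.26 without HFD + L-NAME library 1, 0.14 without library 2, 0.82 with equal cell numbers and 0.09 with the stricter gate. Of 89 ribosomal protein genes, 6 were above 0, the median was -0.29, and 77 stood below both HFD + L-NAME libraries. The ribosomal median was -0.17 without HFD + L-NAME library 1. Of 18 immediate-early genes, 3 were above 0 and the median was -0.32, which became -0.04 without HFD + L-NAME library 1 and -0.57 without library 2. Fos had 406 CPM in the NO2-OA library, 1021 and 886 CPM in HFD + L-NAME and 709 and 916 CPM in chow. Of 16 heat-shock chaperones, 3 were above 0, with a median of -0.35, which was -0.16 without HFD + L-NAME library 1 and -0.61 without library 2. Of 21 STING and NF-kappaB genes, 15 were above 0, with a median of 0.27, which was 0.08 without HFD + L-NAME library 2 and 0.04 with equal cell numbers.

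Whether the regimen changed naive CD8 cells in another way than the CD4 gate was tested by the difference of the 2 effects. It passed the threshold in 8 of 13101 genes (0.0611%). Etv6, a transcriptional repressor of the ETS family, had log2 ratios of naive CD8 over CD4 gate of -0.10 and 0.31 in HFD + L-NAME and 0.97 and 1.01 in chow, with 0.25 in the NO2-OA library. The difference of effects for Etv6 was -0.96 ± 0.16 (edgeR adjusted p = 8.4e-05). Mctp2, a calcium-binding membrane protein, had ratios of 1.62 and 1.70 in HFD + L-NAME and 0.84 and 0.93 in chow, with 1.40 in the NO2-OA library (0.76 ± 0.16, edgeR adjusted p = 0.0118). Nr4a1, a nuclear receptor induced by receptor signals, had ratios of -1.04 and -0.86 in HFD + L-NAME and 0.01 and 0.27 in chow, with -0.41 in the NO2-OA library (-1.11 ± 0.20, edgeR adjusted p = 0.000481). Pcca, a subunit of propionyl-CoA carboxylase, had ratios of 0.57 and 1.09 in HFD + L-NAME and -0.44 and -0.14 in chow (1.05 ± 0.23, edgeR adjusted p = 0.0142). For these 4 genes the ratios of the 2 groups did not overlap. None of the 4 passed the threshold without chow library 1, without chow library 2 or without HFD + L-NAME library 1, where edgeR adjusted p for Etv6 was 0.475, 0.228 and 0.293. In cells thinned to 2000 UMIs none of the 4 passed, and the difference was -0.18 for Nr4a1 and 0.30 for Pcca, against -0.81 for Etv6 and 0.77 for Mctp2. With DESeq2 none of the 4 passed either. The count was 25 genes without HFD + L-NAME library 2. For the change with NO2-OA the difference between the gates passed the threshold in 0 of 13101 genes (0%) with edgeR and in 0 with DESeq2, and 437 genes had an unadjusted edgeR p under 0.05.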

How the data were processed

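The authors deposited 1 matrix of UMI counts per library, left raw. Cell Ranger 7.1.0 wrote these counts, per the file headers; bcl2fastq and genome mm39 are named in the submitters' processing notes. Per the labels' protocols, mononuclear cells were density-separated, lysed of red cells, frozen and thawed before 10x capture of polyadenylated RNA 3′ ends. Library totals ran from 71216133 to 122022000 UMIs.

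Barcodes with at least 200 genes and under 10% mitochondrial UMIs were kept. The members and gene lists were chosen with earlier results of these data known. Counts were summed per library and gate and tested in R 4.3.3 by the robust quasi-likelihood fit of edgeR 4.0.16, after filterByExpr and TMM scaling, adjusted over all genes tested. The main fit had group as its only term over 5 libraries, or the library as a block between gates and splits. Genes of the gate were not tested. Doublets, scored with scrublet in scanpy 1.11.5, were kept and left out as an alternative. They made up 37 members in the NO2-OA library, 2 and 1 in HFD + L-NAME and 49 and 7 in chow. Genes named were up to 10 per direction between groups, and up to 8 between gates or splits. They had the smallest p, a mean of at least 4 log2 CPM and no overlap between groups, or 1 direction in every library. A list described gives up to 4 called members, or those of highest mean where none was called. Other genes named were chosen after their values were seen. Some genes are not reported here.

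On simulated counts with 100 genes changed by a log2 fold of 1 and 100 by 2, among 11977 genes, the test of HFD + L-NAME over chow recovered 24% and 83% of them, and that of NO2-OA over HFD + L-NAME 6% and 55%, with 14 and 11 false calls. Between gates, among 10943 genes, it recovered 100% of each, with 14 false calls. The changed genes were drawn only from those above a minimum mean count, so recovery of genes with low counts was not measured. All simulated libraries shared a common mean profile, without differences between libraries beyond the fitted spread. Alternatives were DESeq2 1.42.0, its size factors, other filters on cells and genes, a stricter gate (at least 2 Cd8b1 UMIs, 0 effector genes), thinning, equal cell numbers, a replicate block and each library left out. The tests of the difference between gates and the fits without platelet UMIs were added after the data were seen.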

Additional observations from a re-analysis of the deposited data

Results flagged for a closer look

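In 8 genes, of which 7 are named, the effect of HFD + L-NAME over chow differed between naive CD8 cells and the CD4 gate, by an edgeR interaction test added after the data were seen. The log2 differences of effects, naive CD8 minus CD4 gate, were -0.96 for Etv6, -1.11 for Nr4a1, 0.76 for Mctp2 and 1.05 for Pcca. In cells thinned to 2000 UMIs they were -0.81 for Etv6, -0.18 for Nr4a1, 0.77 for Mctp2 and 0.30 for Pcca, each with an edgeR adjusted p of 1. They were -4.85 for S100a9, -5.59 for S100a8 and -5.98 for Il1r2, which are known from neutrophils. In naive CD8 cells of chow library 1, 97.1% of 348 S100a9 UMIs, 95.2% of 207 S100a8 UMIs and 97.1% of 104 Il1r2 UMIs lay in the top 5 cells. Without chow library 1 the values were -2.28 for S100a9, -1.68 for S100a8 and -3.33 for Il1r2, each with an edgeR adjusted p of 1. Without HFD + L-NAME library 1 the edgeR adjusted p was 0.063 for S100a9 and S100a8 and 0.118 for Il1r2, whose value was -10.7. With a stricter gate, which left 5 members in HFD + L-NAME library 2, the S100a9 value was 0.59, so it turned direction.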

How the results depend on the processing

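Counts are of genes past the threshold. For HFD + L-NAME over chow, with 2 in the main fit, DESeq2, a mitochondrial share below 5%, thinning, equal cell numbers, 4 libraries alone and members without platelet UMIs each gave 0. No filter gave 8, the stricter gate 4, and leaving out a library gave 0 (without NO2-OA) to 64 (without chow library 1). Across genes, the difference between libraries 1 and 2 of chow correlated with that of HFD + L-NAME at r = 0.06. Counting noise lowers r, so this value cannot settle whether replicate numbers pair the libraries. A replicate block gave 15 for HFD + L-NAME over chow and 21 for NO2-OA over HFD + L-NAME. For NO2-OA over HFD + L-NAME, with 17, DESeq2 gave 6, the stricter gate and thinning 3 each, and a mitochondrial share below 5%, equal cell numbers and members without platelet UMIs 1 each; leaving out a library gave 15 to 29 (without chow library 2). Between naive CD8 and CD4 gates the stricter gate gave 708, thinning 951 and leaving out a library 1631 to 2309, and of 52 called genes named in the text 44 kept direction and call under every alternative in which they could be tested.

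For the Ly6c2 split, DESeq2 gave 1, no filter 30, 1000 UMIs 1, 3000 UMIs 14 and leaving out a library 1 to 9. For the Itgae split, no filter gave 4, 1000 UMIs 1 and leaving out a library 0 to 3. For the Dapl1 split, 1000 UMIs gave 5 and leaving out a library 13 to 62. Without a filter, the median of all genes shifted to -0.20 for Dapl1, -0.59 for Ly6c2 and -0.51 for Itgae, and Tmsb4x and Rps12 reversed to -0.064 and -0.058 in the Ly6c2 split. For the difference of the HFD + L-NAME effect between gates, DESeq2 gave 1, thinning 3 and leaving out a library 0 to 25, and S100a9 reversed to 0.59 with the stricter gate. For that of NO2-OA, leaving out doublets gave 1, the stricter gate and thinning 4 each, and leaving out a library 0 to 13 (without HFD + L-NAME library 2). Abcc1 and Arsb reversed to 0.16 and 0.15 in thinned cells for HFD + L-NAME over chow. The log2 difference of the share of kept cells ran from -2.41 to -0.62 as each library was left out. That of gated CD8 cells was -0.47 with a mitochondrial share below 5%, -1.26 with the stricter gate and -0.016 in thinned cells. The cause of these changes was not tested. HFD + L-NAME library 2 had the smallest sum, from 60 members, and only 5 members with the stricter gate.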
